A study of Rattus norvegicus with 6 samples.

Results

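The podocyte genes examined here were Nphs1, Wt1, Podxl, Synpo, Ptpro, Pla2r1, Cd2ap and Actn4. They were chosen by name, through probes whose RefSeq accession maps to 1 of these rat genes, and not by any measured value. They made up 8 of the 15284 genes named on the array and were measured by 18 probes, of which 15 were bright enough to be tested. Total RNA of the renal cortex came from 6 male Sprague-Dawley rats, 5 weeks old when bought, and each sample was hybridised to its own one-colour Agilent array. The 3 control rats were given corn oil for 4 weeks. The 3 treated rats were given o-nitroanisole, a nitroaromatic compound, at 400 mg/kg/day over the same period. All rats were on one basal diet, and the labels name no other treatment or allele. The comparison asks whether the podocyte signal of the cortex differed between the treated and the control rats.

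Podocytes are the epithelial cells that cover the outside of the glomerular capillaries. Their interlocking foot processes are joined by the slit diaphragm, a filter built around nephrin that is tied to an actin cytoskeleton inside the foot process. Podocytes are a small share of the cells of the cortex, most of which is tubule, so a podocyte gene read in whole cortex depends both on how much glomerulus the piece holds and on what each podocyte makes. In such bulk samples, fewer cells of a type and less RNA per cell cannot be told apart.

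Relative signal is the background-subtracted intensity of a probe divided by the 75th percentile of its own array, so a probe at that percentile has a relative signal of 1. Differences are o-nitroanisole minus corn oil on the log2 scale of this relative signal, each with its standard error (SE) and n = 3 rats per group. A probe's brightness depends on its sequence, so the levels of different genes are not set against each other. The 75th percentile lay between 905 and 1041 intensity units, 66.4% to 71.5% of probes were well above background on each array, and none was saturated. Each group filled a slide of its own, scanned on its own (slide 1 and scan 1 for corn oil, slide 2 and scan 2 for o-nitroanisole), and treatment cannot be told apart from slide and scan in any result given here. The number of arrays limits the precision.

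The podocyte genes had small differences of either sign. The difference was above 0 for 5 genes and below 0 for 3, with a median of 0.07, beside a median of 0.03 over all 32428 features tested (genes by their brightest probe, and unnamed probes). The quartiles over all features were -0.11 and 0.15. None of the 8 podocyte genes passed an adjusted p of 0.05 in limma, and neither did any other feature (0% of features, smallest adjusted p 0.0711). At an unadjusted p under 0.05, 1 podocyte gene, Podxl, was called, against 18.9% of all features (11.8% higher and 7.12% lower with o-nitroanisole). With limma's trend and robust options 0 of the 8 were called, against 1.61% of features. In 2 of the 8, Podxl and Actn4, the groups did not overlap, with o-nitroanisole higher in both. This was so for 27.2% of all features (17.6% higher, 9.56% lower). The median absolute difference was 0.12 for the podocyte genes and 0.13 for all features, and the median spread within a group (SD) was 0.12 and 0.13. The 95% confidence interval of the difference lay within 1.5-fold in both directions for 6 of the 8 genes, against 69.7% of features. Podxl and Pla2r1 were the exceptions.

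**Figure D1:**
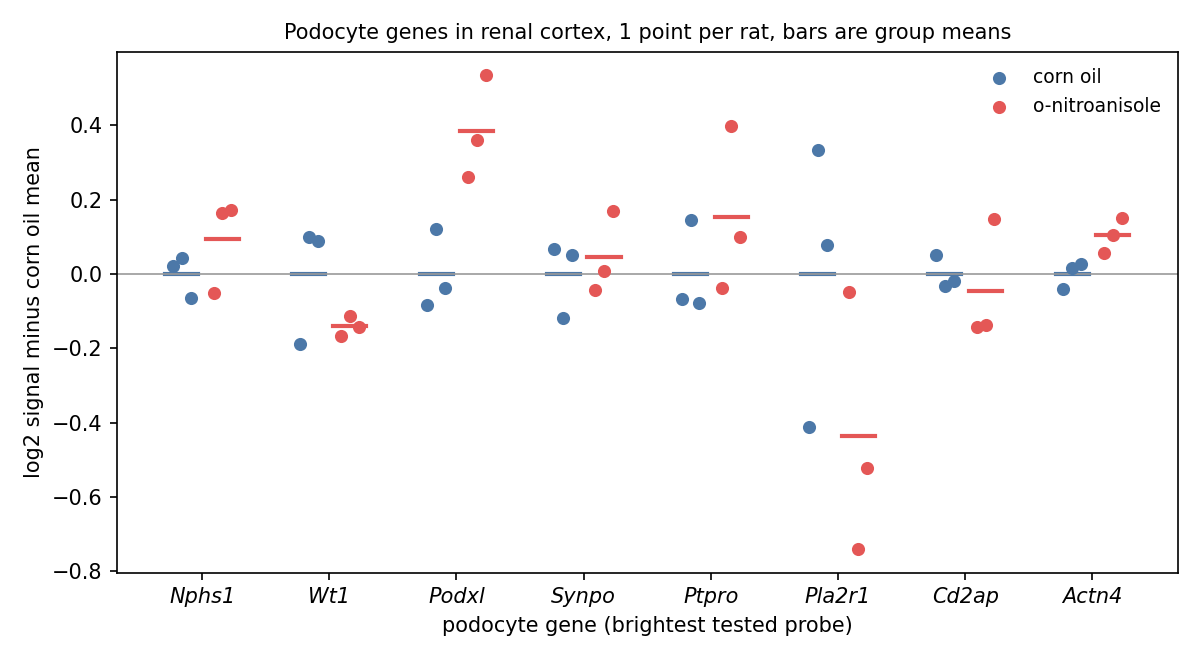
Log2 signal of each podocyte gene in each rat, minus the mean of the corn oil rats, with 1 point per rat and horizontal bars at the group means. The groups overlap for every gene except Podxl and Actn4, and Pla2r1 has the widest spread within its groups.

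At the slit diaphragm, Nphs1 encodes nephrin, the adhesion protein that spans the slit. Its relative signal was 2.00, 2.03 and 1.88 in the corn oil rats and 1.90, 2.20 and 2.21 in the o-nitroanisole rats. The groups overlapped: the lowest treated rat lay between the corn oil rats, and the other two lay above them. The difference was 0.09 ± 0.08 (SE), which is 1.07-fold with a 95% interval from 0.925-fold to 1.23-fold (adjusted p = 0.582, limma). Its other probe gave 0.06, with an interval from -0.18 to 0.30.

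Cd2ap encodes an adaptor that links nephrin to actin and to endocytosis. It is also made by many other cells, so its level in cortex is not a measure of podocytes alone. Its relative signal was 1.06, 0.998 and 1.01 with corn oil and 0.924, 0.928 and 1.13 with o-nitroanisole. The treated rats stood on both sides of the corn oil rats, and the difference was -0.05 ± 0.10 (adjusted p = 0.835), with an interval from -0.29 to 0.20.

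Podxl was the 1 gene of the 8 whose interval excluded 0. It encodes podocalyxin, the strongly charged sialomucin that coats the apical face of the foot processes and holds them apart, and it is made by vascular endothelium as well. Relative signal was 15.4, 17.8 and 15.9 in the corn oil rats and 19.6, 21.0 and 23.7 in the o-nitroanisole rats. Every treated rat was above every corn oil rat. The difference was 0.39 ± 0.10, or 1.31-fold, and the 95% interval on the log2 scale ran from 0.14 to 0.63. Its unadjusted p was 0.00865 and its adjusted p 0.149, so it did not pass the test across all features. Of all features, 86.5% had a smaller absolute difference. Across the 18 alternative fits the difference stayed between 0.30 and 0.45, and the lowest adjusted p was 0.0756. A single probe measures Podxl, so no other probe bears on its value.

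Since endothelium and blood cell precursors can also hold podocalyxin, the values of other cell type markers are given beside it. Kdr, the endothelial VEGF receptor, had a relative signal of 21.2, 21.7 and 20.4 with corn oil and 21.7, 24.4 and 25.1 with o-nitroanisole, and its difference was 0.17 ± 0.08 (adjusted p = 0.317). Emcn, which encodes the endothelial sialomucin endomucin, differed by 0.09 ± 0.08 (adjusted p = 0.546), with overlapping groups. Both were chosen after their values had been seen. Of the 12 tested genes of the glomerular endothelium list, 7 had differences above 0 and 5 below. Esam, an adhesion molecule of endothelial junctions, had the largest absolute difference, -0.44 ± 0.31 (adjusted p = 0.482), and Podxl2, Flt1 and Tek were at -0.25, -0.15 and -0.10. Esam read 2.91, 1.39 and 1.38 with corn oil and 1.38, 1.31 and 1.22 with o-nitroanisole, so its difference rests largely on corn oil replicate 1. The 3 Flt1 probes ran from -0.15 to 0.30 and the 2 Tek probes from -0.10 to 0.04. The median of the list was 0.04, and the summed relative signal ran from 32.6 to 35.5 with corn oil and from 34.8 to 38.0 with o-nitroanisole. All 6 tested genes of the red blood cell list (9 genes fixed, 7 matched) were higher in every treated rat, as were 17.6% of all features. Their median difference was 0.89. Their summed signal was 168 to 194 with corn oil and 262 to 313 with o-nitroanisole. The part of these cells in the Podxl difference was not tested.

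Within the same array, Podxl minus Nphs1 on the log2 scale, set to 0 at the corn oil mean, was -0.10, 0.08 and 0.03 in the corn oil rats and 0.31, 0.20 and 0.36 in the treated rats. The groups did not overlap and their means differed by 0.29. Podxl minus Kdr differed by 0.22 and Podxl minus Emcn by 0.29, also without overlap. The Podxl groups do not overlap by themselves, and Nphs1, Kdr and Emcn had smaller differences. These pairs therefore largely repeat the Podxl value. Wt1 minus Nphs1 differed by -0.24 and Ptpro minus Nphs1 by 0.06, with overlapping groups in both. All of these pairs were chosen after the values had been seen, and no test was made of them.

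WT1, the transcription factor encoded by the member gene Wt1, is known to act on the regulatory DNA of both Podxl and Nphs1. The promoters of these genes are shown as background, and a part of WT1 in their signals was not tested. Each run is the RefSeq promoter window of assembly GRCr8, from 250 bases before to 50 bases after the gene's start, 5′ to 3′ on the gene's strand. Capitals mark matches to GNGNGGGNG, a motif of the type bound by WT1, searched on both strands (its reverse complement is CNCCCNCNC). The Podxl window lies at chr4:61149082-61149381 on the minus strand and the Nphs1 window at chr1:94848011-94848310 on the plus strand.
Podxl: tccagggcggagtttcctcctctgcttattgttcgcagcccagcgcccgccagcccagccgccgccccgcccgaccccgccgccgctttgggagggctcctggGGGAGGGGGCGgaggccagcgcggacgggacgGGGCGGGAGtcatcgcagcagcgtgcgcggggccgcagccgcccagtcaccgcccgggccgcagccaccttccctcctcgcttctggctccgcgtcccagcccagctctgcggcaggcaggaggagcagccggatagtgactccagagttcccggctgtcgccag
Nphs1: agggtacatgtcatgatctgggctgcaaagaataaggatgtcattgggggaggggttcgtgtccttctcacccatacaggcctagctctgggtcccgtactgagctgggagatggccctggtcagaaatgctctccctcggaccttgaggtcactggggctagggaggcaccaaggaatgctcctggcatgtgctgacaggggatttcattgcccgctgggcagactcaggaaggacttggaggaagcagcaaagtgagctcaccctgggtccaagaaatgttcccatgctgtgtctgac
The Podxl window held 3 matches, starting at -147, -145 and -115 from the gene start, and the first 2 overlap. The Nphs1 window held 0. The windows also differed in base composition, with 74.7% G and C for Podxl and 56.3% for Nphs1, against a median of 51.7% over all promoters. Promoters were found for 7 of the 8 podocyte genes. Of these, 4 held a match (Podxl, Ptpro with 1, Pla2r1 and Cd2ap with 2 each), and 36.7% of the 33469 promoters of this length did. A match is a run of letters, not a site shown to be bound.

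Ptpro encodes a receptor tyrosine phosphatase of the apical podocyte membrane, also called GLEPP1. Its relative signal was 5.95, 6.89 and 5.91 in the corn oil rats and 6.07, 8.21 and 6.67 in the treated rats. The groups overlapped, with treated replicate 2 the highest of the 6 rats. The difference was 0.15 ± 0.13 (adjusted p = 0.576), with an interval from -0.18 to 0.48. Its 3 probes gave 0.15, 0.16 and 0.20. The difference was 0.03 without treated replicate 2 and 0.31 with another background correction (normexp), and its adjusted p was 0.199 or more in every alternative fit.

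Of the actin genes, Synpo encodes synaptopodin, which organises the actin bundles of the foot process. Its relative signal was 0.139, 0.122 and 0.137 with corn oil and 0.128, 0.133 and 0.149 with o-nitroanisole. These values interleave, and the difference of 0.04 ± 0.09 (adjusted p = 0.817, interval -0.17 to 0.26) was smaller than the spread within the groups, with an SD of 0.10 and 0.11. Its sign turned when corn oil replicate 2 or o-nitroanisole replicate 3 was left out.

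Actn4 encodes alpha-actinin-4, a protein that crosslinks actin filaments in podocytes and in many other cells. Its relative signal was 18.9, 19.6 and 19.8 with corn oil and 20.2, 20.9 and 21.5 with o-nitroanisole. All treated rats were above all corn oil rats, by a small amount: the difference was 0.10 ± 0.06 (adjusted p = 0.402), or 1.07-fold with an interval from 0.971-fold to 1.19-fold. Its spread within groups was narrow, with 6.10% of features having a lower SD. The other probe gave 0.04 with overlapping groups, and quantile scaling took the difference of the first probe to 0.01.

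Wt1 encodes the zinc finger factor that keeps podocytes in their mature state. Its brightest probe read 0.833, 1.02 and 1.01 in the corn oil rats and 0.846, 0.878 and 0.860 in the treated rats. Corn oil replicate 1 lay below all 3 treated rats and the other corn oil rats above them, so the groups overlapped. The difference was -0.14 ± 0.09 (adjusted p = 0.472), which is 0.907-fold with an interval from 0.771-fold to 1.07-fold. The difference was below 0 for all 4 Wt1 probes, at -0.14, -0.41, -0.13 and -0.41.

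For 2 of the 3 dimmer Wt1 probes the treated rats were all below the corn oil rats. The last of the 4 read 0.0603, 0.0766 and 0.0717 with corn oil and 0.0426, 0.0600 and 0.0551 with o-nitroanisole. Tested singly among all probes it had an unadjusted p of 0.0425 and an adjusted p of 0.247, so it was not called. The mean of the 4 probes gave -0.27 (adjusted p = 0.342). Leaving out 1 rat at a time moved the difference of the brightest probe between -0.24 and -0.09.

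Pla2r1, the phospholipase A2 receptor that is the main autoantigen of human membranous nephropathy, was the podocyte gene read nearest to background and with the widest interval. Its tested probe read 0.0222, 0.0372 and 0.0312 with corn oil and 0.0286, 0.0177 and 0.0206 with o-nitroanisole. It was well above background in 3 of 3 corn oil rats and 2 of 3 treated rats, and the groups overlapped. Pla2r1 thus entered the test only through the corn oil group. The difference was -0.44 ± 0.25 (adjusted p = 0.414), with a wide interval from -1.07 to 0.19. The scanner's own error for this spot was 12.4% to 26.9% of its signal, against at most 10.6% for the other podocyte genes.

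Normexp background correction took the Pla2r1 difference to -0.08, and leaving out 1 rat at a time moved it between -0.64 and -0.27. The other 3 Pla2r1 probes were not tested. One was well above background in 1 of 3 corn oil rats and 0 of 3 treated rats, with a measured difference of -2.25. The other 2 were so in none of the 6 rats, and measured 0.64 and 0.43. The untested Pla2r1 probes thus differed in sign. The corn oil level of Pla2r1 is thus near the lower end of what these arrays can read, and its interval reaches further to either side of the estimate than the whole Podxl difference.

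**Figure D2:**
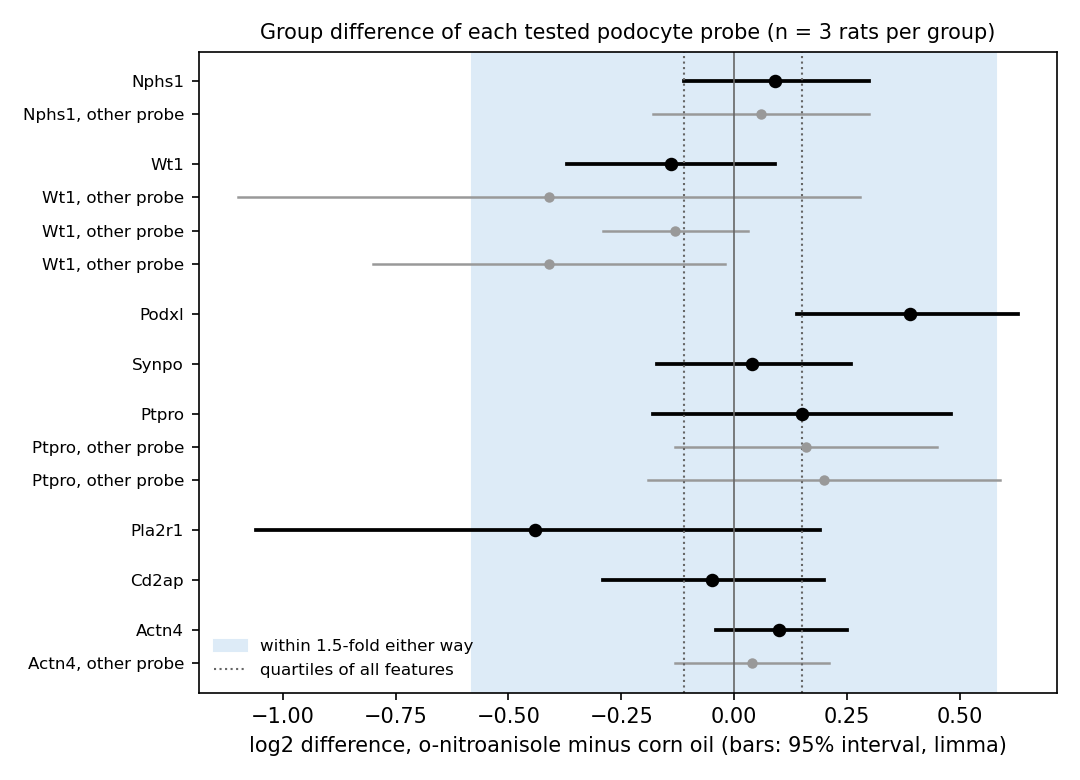
Log2 difference (o-nitroanisole minus corn oil) of each tested podocyte probe, with its 95% interval from limma, grouped by gene. Shading marks 1.5-fold either way and dotted lines the quartiles of all features. The widest intervals are those of Pla2r1 and of 1 Wt1 probe at -0.41, and only Podxl and the last Wt1 probe have intervals that leave out 0.

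Beyond these 8, 72 other podocyte genes were listed, of which 55 were matched and tested. None passed an adjusted p of 0.05. At an unadjusted p under 0.05 there were 6 higher and 4 lower (18.2%, against 18.9% of all features), and 0 with the trend and robust options. The difference was above 0 for 27 and below 0 for 28, with a median of -0.01. The groups did not overlap for 13 of the 55 (23.6%, against 27.2% of all features), and the interval lay within 1.5-fold for 44 (80.0%, against 69.7%). Many of the 55, such as Vegfa and Mme, are also made by other cells of the cortex. These shares are thus not a measure of podocytes alone.

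Among 17 tested slit diaphragm genes, the median difference was -0.05, with 7 above 0 and 10 below. The summed relative signal of those read on every array ran from 35.2 to 37.3 with corn oil and from 33.5 to 34.8 with o-nitroanisole. Kirrel3, a relative of nephrin, had the largest absolute difference of the list, -1.52 ± 0.75 (adjusted p = 0.343). It was well above background in 3 of 3 corn oil rats and 1 of 3 treated rats. Kirrel3 thus entered the test only through the corn oil group, and its values lie near background.

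Of 12 actin cytoskeleton genes, with a median of 0.03, 2, Clic5 and Pdlim2, had an unadjusted p under 0.05, beside 18.9% of all features. Clic5 encodes a chloride channel family protein that sits with ezrin and podocalyxin at the apical face of the foot process. It read 14.2, 16.5 and 13.6 with corn oil and 17.2, 18.6 and 21.0 with o-nitroanisole, without overlap. The difference was 0.36 ± 0.11 (adjusted p = 0.186), while its 3 probes ran from -0.18 to 0.36. For Pdlim2, which binds alpha-actinin, it was 0.30 ± 0.11 (adjusted p = 0.214).

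The 5 tested transcription factors had a median of -0.12. Pou3f3, which acts in nephron development, differed by -0.22 ± 0.07 (adjusted p = 0.181). Like that of Wt1, its value was below 0 and was not called.

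The 8 basement membrane and adhesion genes had a median of 0.07. Lama5 and Lamb2 encode chains of the laminin of the glomerular filter, and they differed by 0.31 ± 0.12 (adjusted p = 0.239) and 0.26 ± 0.09 (adjusted p = 0.212).

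Among 13 secreted and signalling genes, with a median of -0.02, 4 had an unadjusted p under 0.05 (18.9% of all features did). The groups did not overlap for 5 of the 13 (27.2% of all features), these 4 among them. Vegfa, the growth factor that podocytes send to the capillary endothelium and that tubules make as well, read 17.7, 19.6 and 19.2 with corn oil and 21.4, 23.6 and 22.4 with o-nitroanisole. Its difference was 0.26 ± 0.07 (adjusted p = 0.165). Bmp7, a growth factor of kidney development, differed by 0.24 ± 0.06 (adjusted p = 0.153). Lower values were read for Mme, which encodes neprilysin and is also a brush border enzyme of the proximal tubule, at -0.84 ± 0.25 (adjusted p = 0.180), and for Tdrd5, at -0.71 ± 0.18 (adjusted p = 0.146).

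**Figure D3:**
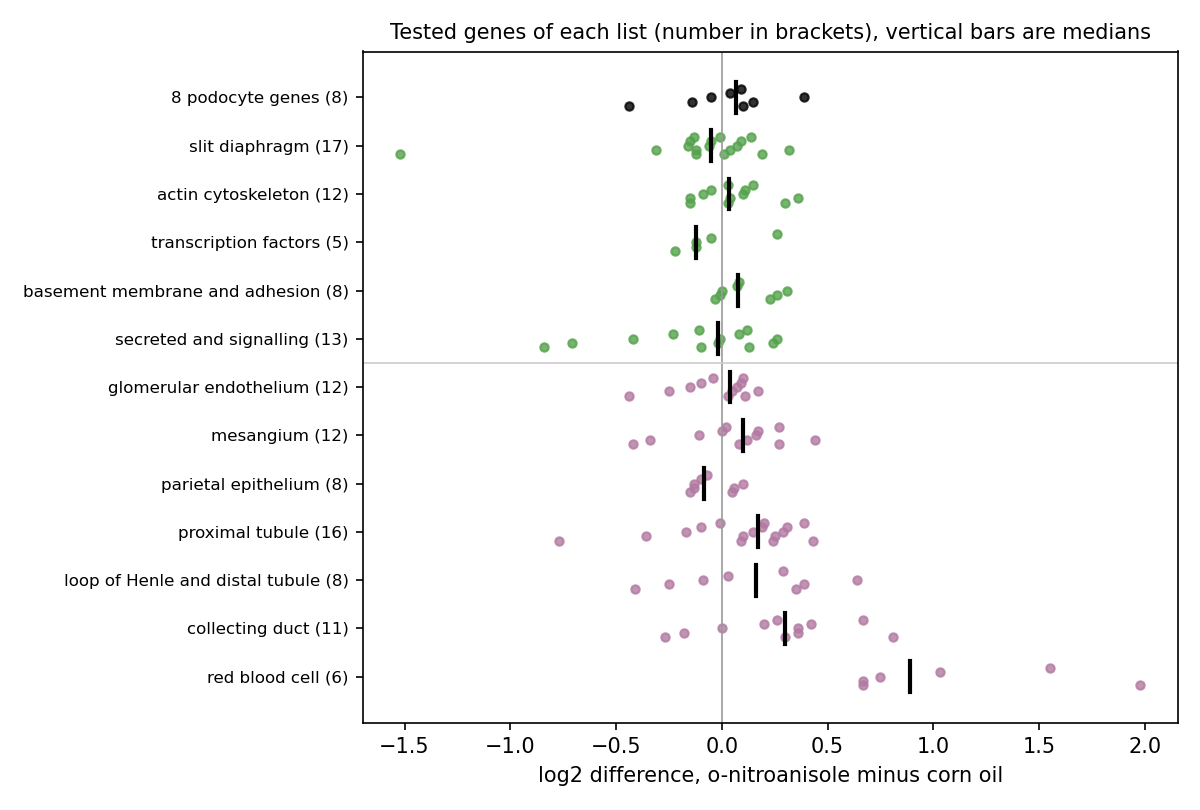
Log2 difference (o-nitroanisole minus corn oil) of every tested gene of each list, with the number tested in brackets and vertical bars at the medians. The podocyte genes have a median of 0.07, and the red blood cell list stands furthest from 0, at 0.89.

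Against the other cells of the cortex, the podocyte genes were read within each array. The 6 genes other than Cd2ap and Actn4 are called restricted here by name, not by a pattern measured on these arrays. Podxl is also made by endothelium, and Pla2r1 was read near background. The mean level of the 6, set to 0 at the corn oil mean, was -0.11, 0.10 and 0.01 in the corn oil rats. It was -0.01, 0.01 and 0.05 in the treated rats, a difference of 0.02. Without Pla2r1 the mean level was -0.05, 0.06 and -0.01 with corn oil and -0.01, 0.16 and 0.17 with o-nitroanisole. This was a difference of 0.11, and the groups overlapped either way. Minus the mean of the tubule lists (proximal tubule, and loop of Henle with distal tubule), the level of the 6 genes was -0.07, 0.03 and 0.03 with corn oil and -0.04, -0.10 and -0.10 with o-nitroanisole. The groups overlapped and their means differed by -0.08. Without Pla2r1 this difference was 0.01, with values of -0.01, -0.01 and 0.02 with corn oil and -0.03, 0.05 and 0.01 with o-nitroanisole. The proximal tubule level was itself higher in every treated rat, by 0.08. That of the loop of Henle and distal tubule differed by 0.12, with overlapping groups.

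Relative to the other glomerular lists, again without Pla2r1, the podocyte level differed by 0.14 against endothelium, 0.05 against mesangium and 0.15 against parietal epithelium, and the groups overlapped in each case. The podocyte level was lower in every treated rat relative to the collecting duct list, by -0.16, and to the red blood cell list, at -1.33, -0.73 and -0.94 against 0.01, 0.07 and -0.08 with corn oil. The levels of both lists were themselves higher in every treated rat, by 0.27 for collecting duct and 1.11 for red blood cell. The podocyte level without Pla2r1 differed by 0.11, so these lower values come from the reference lists and are not a fall in podocyte signal. The collecting duct and red blood cell lists share the gene Slc4a1, so they are not separate. The collecting duct list had a median difference of 0.30 over 11 genes, led by the water channel Aqp4 at 0.81 ± 0.11 (adjusted p = 0.0880). The 4 Aqp4 probes ran from 0.06 to 0.84. In the red blood cell list, Alas2, the enzyme that starts heme synthesis in erythroid cells, read 1.27, 1.16 and 1.28 with corn oil and 5.17, 2.57 and 3.59 with o-nitroanisole, a difference of 1.55 ± 0.25 (adjusted p = 0.0983).

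**Figure D4:**
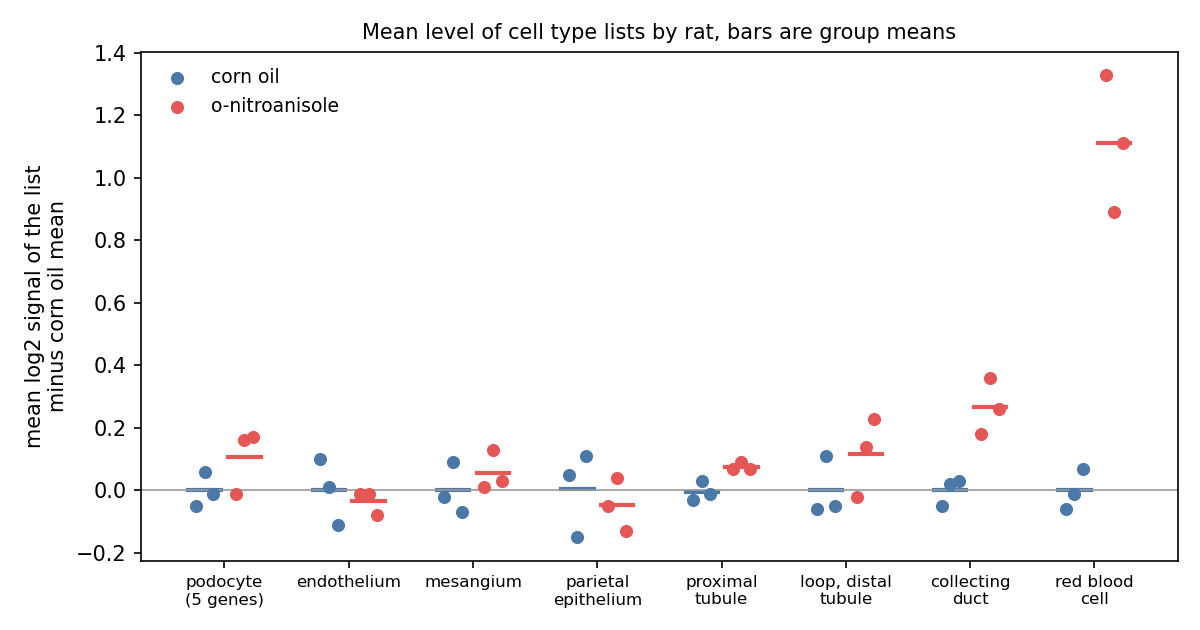
Mean log2 signal of each cell type list in each rat, minus the mean of the corn oil rats, with bars at the group means. The podocyte points are the mean of 5 genes (Nphs1, Wt1, Podxl, Synpo and Ptpro, without Pla2r1) and lie between -0.05 and 0.17, with overlapping groups, while the red blood cell list is higher in all 3 treated rats.

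In the mesangium list (12 tested, median 0.10), Agtr1a, the angiotensin receptor, differed by -0.34 ± 0.09 (adjusted p = 0.158). The 8 parietal epithelium genes had a median of -0.08, with Pax8 at -0.15 ± 0.12 (adjusted p = 0.532). The proximal tubule list had a median of 0.17 over 16 genes and the loop of Henle and distal tubule list 0.16 over 8.

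The podocyte genes did not share one pattern over the 6 rats. As a description over these 6 arrays, which share slide and scan by group, Wt1 correlated with the mean of the other restricted podocyte genes at r = 0.37, Nphs1 at 0.07, Ptpro at 0.02, Podxl at -0.09, Synpo at -0.50 and Pla2r1 at -0.52. Actn4 correlated with the mean of the 6 at 0.49 and Cd2ap at -0.01. With Pla2r1 left out of the mean, a choice made after seeing the data, these values were 0.84 for Nphs1, 0.60 for Ptpro, 0.56 for Podxl, 0.05 for Synpo, -0.33 for Wt1, 0.88 for Actn4 and 0.11 for Cd2ap, so they rest largely on the gene near background. Of 11477 named genes well above background on all arrays, those most like the mean of the 6 restricted genes were Pon2, Glyr1, Tm7sf3, Dsc2 and Dipk2a, with r from 0.97 to 0.99. None of these is among the podocyte genes listed here. Of the 11477, 83 (0.723%) had an r of 0.9 or more, and of 53 other podocyte genes 0 had. The median r was 0.36 for these 53 genes and 0.06 for all 11477. Without Pla2r1 the counts were 183 (1.59%) and 4 of 53, and the medians were 0.45 and 0.17. The 5 genes most like the mean were then Terf1, Aif1l, Calb1, Capn1 and Syngr1, with r from 0.98 to 0.99.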

How the data were processed

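Renal cortex RNA of 3 corn oil and 3 o-nitroanisole rats was labelled with Cy3, and the labels call the arrays biological replicates. Per the file headers and the submitters' processing notes, the authors deposited scanner intensities from Agilent Feature Extraction 10.7, background-subtracted and detrended within the array. The authors' deposited value table holds a linear ratio, each array's signal over its 75th percentile. Its 3 corn oil columns hold the values of the 3 corn oil arrays but in a different order, so which corn oil rat carries which number is not settled. The group is not affected.

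Probes were named by RefSeq accession (27460 of 33356 matched) in a table of assembly GRCr8, and 84 spike-in probes were left out. Values were log2 of the deposited intensity minus the array's 75th percentile, with outlier spots missing. A probe was tested where all 3 arrays of either group read it well above background, and a gene took its brightest probe. Groups were compared with limma 3.58.1 (lmFit, eBayes) in R 4.3.3 over all 32428 features, with Benjamini-Hochberg adjustment at 0.05, and the script was tested on simulated data. Alternatives covered scaling, background, filters, probe rule, moderation, array weights, the value table, the replicate block and each rat left out. A scanner gMeanSignal column was not used here, and normexp (offset 50) took the median signals.

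All 8 podocyte genes are named. From each other list the text draws on genes with an unadjusted p under 0.05 (at most 4) and the largest absolute difference. It also draws on the 5 genes most like the podocyte mean, with and without Pla2r1. The members and lists were chosen with earlier results of these data known. Some genes that this rule names are not reported here. Probe and protein sequences were not used here.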

Additional observations from a re-analysis of the deposited data

How the results depend on the processing

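Under all 18 alternative fits, 0 of the 8 podocyte genes were called. The median difference, 0.07 as reported, ran from 0.02 to 0.11 with each rat left out and from 0.04 to 0.09 otherwise, and genes with an interval within 1.5-fold numbered 5 to 7. The podocyte level against the tubule, -0.08 as reported, was -0.12 to -0.06 with each rat left out, -0.03 with quantile scaling, 0.01 with genes well above background on all 6 arrays, which drops Pla2r1, and 0.01 without Pla2r1, an alternative chosen after seeing the data. With each rat left out, Synpo ran from -0.02 to 0.09 and Cd2ap from -0.14 to 0.00. Over all features, 115 were called with normexp, 522 with the trend and robust options, 4 without corn oil replicate 3 and 0 in the other fits.

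The replicate numbers were not shown to pair the rats: same-numbered rats correlated at 0.091, 0.058 and 0.026, and o-nitroanisole replicate 3 correlated best with corn oil replicate 2 (0.034). The replicate block called 0 podocyte genes, with a median difference of 0.07, 6 intervals within 1.5-fold and a level against the tubule of -0.08. It changed no call. A slide block could not be fitted, because each slide held 1 group. Signal over background limits Pla2r1.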
